A study of Mus musculus with 6 samples.

Results

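The expression of 40 genes of DNA replication and S phase was followed in salivary glands of mouse embryos that had been exposed to TGF-β1 or left untreated. The genes were chosen by symbol, and 39 of the 40, out of 19505 genes measured, had a probe set under their symbol in the platform annotation used here, each of them exactly 1. Mcm7 was not analysed here. The arrays comprised 3 of glands treated with TGF-β1 (TGF-β1 1 to 3) and 3 of glands treated with nothing (controls 1 to 3). All glands were taken at a stage the labels write as T13 and cultured for 72 hours. The sources used here give no strain, dose, type of salivary gland or number of embryos per array. They do not say whether replicates came from separate cultures, so that the spread behind each p-value, that between arrays of 1 group, may be technical.

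Before a cell copies its DNA, the origin recognition complex, Cdc6 and Cdt1 load the ring-shaped MCM helicase onto origins, and geminin blocks a further round of loading. Cdc45 and the GINS complex then turn the helicase on, primase and the replicative polymerases make new strands, and PCNA, loaded by replication factor C, holds the polymerases on DNA. E2F transcription factors, released when cyclin-dependent kinases inactivate the retinoblastoma protein, drive many of these genes as cells enter S phase. TGF-β is known as a brake on this step in many epithelial cells, while embryonic salivary epithelium divides as it branches.

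Part of what the genes share could be read from their promoters. RefSeq windows of the build GRCm38.p6, which span 250 bases before to 50 bases after an annotated start, were at hand for 30 of the 39 genes. The words that follow the E2F consensus, namely TTTCCCGC, TTTCGCGC, TTTGCCGC and TTTGGCGC, were searched on both strands, with overlapping matches counted. At least 1 of them was found in 13 of the 30 genes (43.3%), against 2.60% of the 27025 genes that have windows. Counted by window, 36.1% of the 36 windows of these genes held a word, against 2.26% of all 32851 windows and 5.22% of the 8148 windows with at least as many CG pairs as the median of these genes' windows (21). The shorter word CCAAT was found in 18 of the 30 genes (60.0%), against 41.1% of all genes, and in 55.6% of their windows, against 32.6% of those CG-rich windows. TTTGAA, a core of the element known from mitotic genes, was found in 5 of the 30 genes (16.7%), against 20.2% of all genes, and in 13.9% of their windows, against 6.52% of the windows as rich in CG pairs. A match is a description of letters and shows no binding.

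The stretches below show the E2F words in capitals, read 5′ to 3′ on the strand of the gene, with the rest in lower case. Cdc6 (chr11:98907957-98908076, plus strand) and Rfc3 (chr5:151651201-151651320, minus strand) are shown because their transcripts passed the array-weighted test described further on. Of the other genes that passed it, Prim1 had a window without an E2F word, and Gmnn and Pole had no window. Mcm5 (chr8:75109302-75109421, plus strand) and Mcm6 (chr1:128359721-128359840, minus strand) are shown because overlapping words on opposite strands stand in both. Orc1 (chr4:108579334-108579453, plus strand) holds a word too, and its transcript had the lowest difference of the set.
Cdc6: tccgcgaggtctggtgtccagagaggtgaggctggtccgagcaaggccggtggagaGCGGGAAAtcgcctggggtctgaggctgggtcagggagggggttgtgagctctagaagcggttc
Rfc3: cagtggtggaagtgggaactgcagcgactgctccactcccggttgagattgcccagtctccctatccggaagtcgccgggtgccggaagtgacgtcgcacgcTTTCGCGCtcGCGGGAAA
Mcm5: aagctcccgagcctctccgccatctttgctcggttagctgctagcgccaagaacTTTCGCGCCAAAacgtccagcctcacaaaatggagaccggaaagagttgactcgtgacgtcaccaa
Mcm6: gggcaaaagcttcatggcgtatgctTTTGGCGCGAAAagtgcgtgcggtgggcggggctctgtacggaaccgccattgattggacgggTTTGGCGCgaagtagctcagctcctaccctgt
Orc1: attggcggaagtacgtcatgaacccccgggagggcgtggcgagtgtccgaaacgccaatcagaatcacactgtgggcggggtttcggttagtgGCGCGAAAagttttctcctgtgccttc

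**Figure D1:**
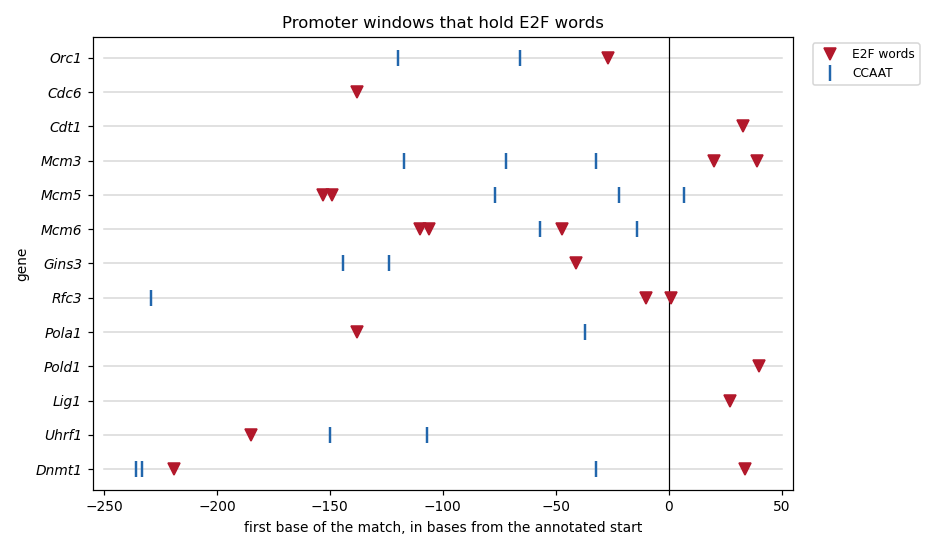
Positions of E2F words (triangles) and of CCAAT (ticks) in the promoter windows of the 13 genes that hold an E2F word, in bases from the annotated start (vertical line). The words lie on both sides of the start, from 219 bases before it in a window of Dnmt1 to 40 bases after it in Pold1.

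One control array stood apart and weighs on all values that follow. Over all genes, control 3 correlated with the other arrays at 0.550 to 0.601, while the correlations among TGF-β1 1, TGF-β1 2, control 1 and control 2 were 0.974 to 0.990, and those of TGF-β1 3 with these 4 were 0.948 to 0.953. Gapdh, a glycolytic enzyme that every cell uses, had log2 values of 11.89, 11.98 and 11.87 in TGF-β1 1 to 3, against 11.87, 11.88 and 6.21 in controls 1 to 3. Of the 39 replication genes, 27 (69.2%, against 32.4% of all genes) were lowest in control 3, 3 were highest there (Gins1, Rfc4 and Tk1) and 9 lay inside the range of the other arrays. Their deviation in control 3 from the mean of controls 1 and 2 had a median of -1.41 on the log2 scale, against 0.45 over all genes. Low values there were not particular to them: all 10 measured genes that every cell uses were lowest in control 3, with a median of -3.11. Control 3 was also less spread, with an interquartile range of 2.02 against 3.13 to 3.21 in the other arrays. All 39 genes are among the 13003 brighter genes, and the shares over all genes are not matched for brightness. A low value in control 3 enlarges a positive difference, so differences are those of the fit that weights this array down unless another fit is named. Its weight there was 0.034, and TGF-β1 3 was weighted down too, to 0.40. The weights of TGF-β1 1, TGF-β1 2, control 1 and control 2 were 4.29, 2.33, 1.65 and 4.52, so the fit rests mostly on these 4 arrays. Cdh1 encodes E-cadherin, a marker of epithelium. It was at 12.83, 12.80 and 11.63 in TGF-β1 1 to 3, against 12.45, 11.95 and 8.30 in controls 1 to 3. Its value in control 3 was still above the upper quartile of that array (7.86). A low value there does not show that epithelium was missing.

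**Figure D2:**
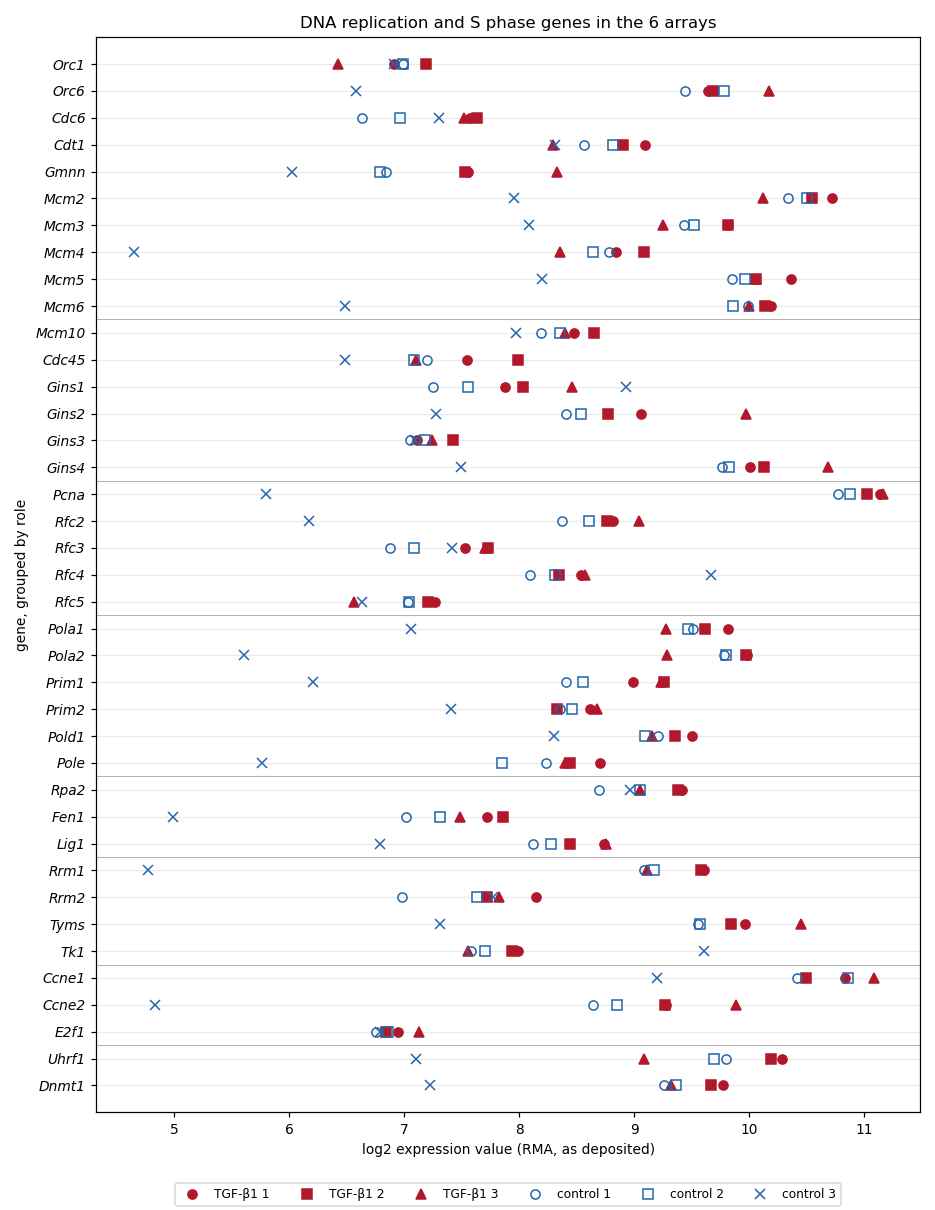
Log2 expression values of the 39 genes (horizontal axis) in the 3 TGF-β1 arrays (filled red symbols) and the 3 control arrays (open blue symbols and crosses), 1 row per gene, with lines between roles. The crosses of control 3 lie left of all other symbols in 27 rows, and the filled symbols of TGF-β1 1 and 2 lie right of controls 1 and 2 in 33 rows.

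Most replication genes were slightly higher in the TGF-β1 arrays, and few of the differences passed a test across all genes. Relative to the mean of controls 1 and 2, the median of the 39 genes was 0.35, 0.30 and 0.27 log2 units higher in TGF-β1 1, 2 and 3, where the median over all genes was 0.02, -0.01 and -0.01. Limma's array-weighted fit of 6 arrays counts each array by its agreement with the others of its group. In this fit, 5 of the 39 genes passed as higher at a Benjamini-Hochberg adjusted p under 0.05, 0 passed as lower and 34 did not pass. The background was 3.45% of all genes called higher and 6.88% called in either direction, and the 5 genes are 12.8% of the 39. The 39 differences ran from -0.02 to 0.79 with a median of 0.29, against 0.01 over all genes, and 38 of them lay above 0, as did 50.9% of all genes. These counts describe genes measured on the same 6 arrays and are not independent of each other. In whole glands, more dividing cells and more RNA per dividing cell cannot be told apart.

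The calls changed when single arrays were left out and when the arrays were weighted equally. The unweighted limma fit of 6 arrays passed 0 of the 39 genes and 0% of all genes, with 2 of the 39, Gmnn and Gins2, higher at an unadjusted p under 0.05 (background 1.46%). Without control 3, the array-weighted fit passed 2, Cdc6 and Gmnn (background 1.26% higher), and the unweighted fit passed 0, with 8 at an unadjusted p under 0.05 (background 3.63% higher). Without TGF-β1 3 the array-weighted fit passed 2, Cdc6 and Rpa2 (background 1.92% in either direction). It passed 0 of the 39 without TGF-β1 1, TGF-β1 2, control 1 or control 2, where few or none of all genes passed (0.041% without TGF-β1 1, 0.0615% without TGF-β1 2, and 0% without control 1 or control 2). With control 3 and TGF-β1 3 both left out, Gmnn alone passed (background 1.14% higher). The weighted fit treats weights estimated from the same arrays as known and leaves out their error, and the effect of this on its p-values was not tested.

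In the order of the arrays, all 3 TGF-β1 arrays lay above all 3 controls in 16 of the 39 genes (41.0%), against a background of 5.8% of all genes and 8.29% of the 13003 brighter genes, among which all 39 fall. Without control 3 the count was 19 (48.7%), against 12.8% of all genes and 13.5% of the brighter ones. In the reverse order, all 3 TGF-β1 arrays lay below all 3 controls in 0 of the 39, against 5.78% of all genes. TGF-β1 1 and 2 both lay above controls 1 and 2 in 33 genes (84.6%), against 24.4% of all genes and 26.9% of the brighter ones.

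**Figure D3:**
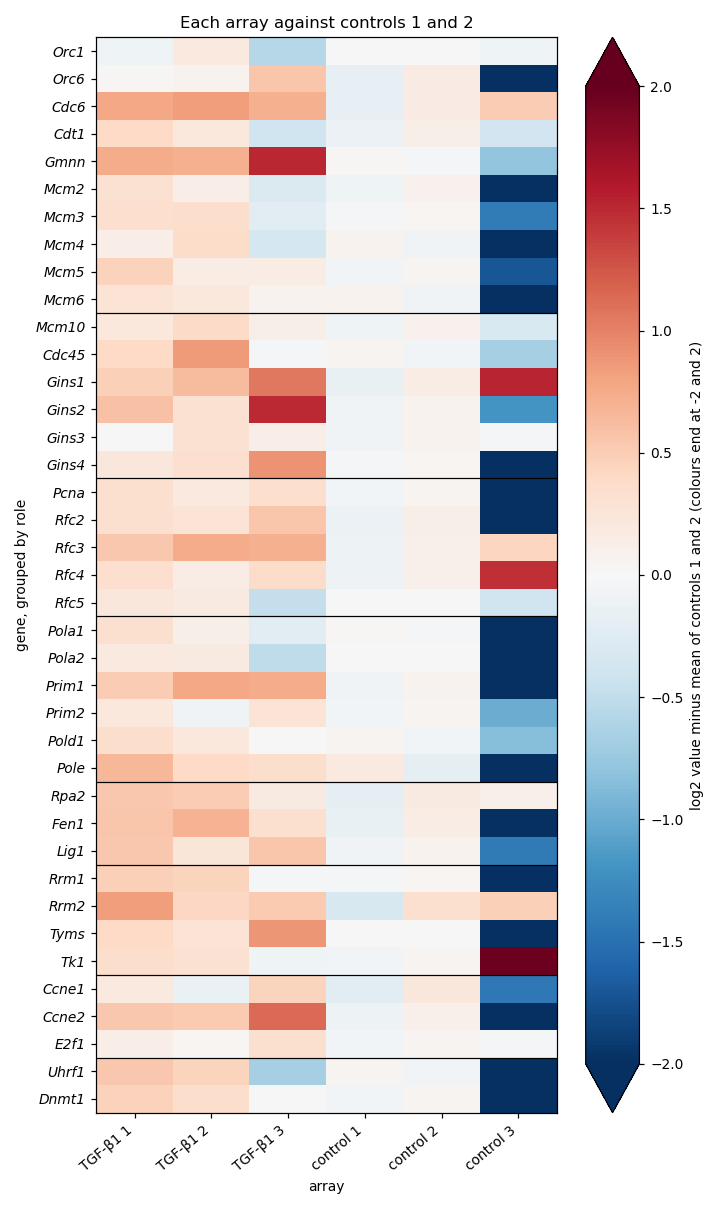
Log2 value of each of the 39 genes in each array minus the mean of controls 1 and 2 (colour, red for higher and blue for lower, ending at -2 and 2), with the TGF-β1 arrays left of the controls. TGF-β1 1 and 2 are red in most rows, TGF-β1 3 is mixed, and control 3 is dark blue in most rows and dark red for Tk1, Gins1 and Rfc4.

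Among the genes of origin licensing, Cdc6 and Gmnn rose in the array-weighted fit and the MCM subunits did not pass. Cdc6 (Entrez gene 23834), which loads the helicase with the origin recognition complex, was at 7.57, 7.63 and 7.51 in TGF-β1 1 to 3, against 6.63, 6.97 and 7.30 in controls 1 to 3. The groups did not overlap, and control 3 was the control nearest to the treated arrays. The means of Cdc6 were 7.57 ± 0.06 with TGF-β1 and 6.97 ± 0.33 without (SD, n = 3 each), and the array-weighted difference was 0.71 ± 0.14 (SE, limma adjusted p = 0.0132), a fold of 1.63. It was 0.61 unweighted, 0.77 without control 3 and 0.80 without control 3 and TGF-β1 3, where the limma adjusted p was 0.0573.

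Gmnn (Entrez gene 57441) encodes geminin, which binds Cdt1 and prevents a second loading. It was at 7.55, 7.53 and 8.32 in TGF-β1 1 to 3, against 6.84, 6.79 and 6.02 in controls 1 to 3. All treated arrays lay above all controls, with TGF-β1 3 the highest and control 3 the lowest. The array-weighted difference was 0.79 ± 0.15 (SE, limma adjusted p = 0.0104), the largest of the 39, and it was 1.25 in the unweighted fit, 0.99 in that fit without control 3 and 0.73 without control 3 and TGF-β1 3 (adjusted p = 0.0489).

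The 5 measured MCM subunits had array-weighted differences of 0.19 for Mcm2, 0.29 for Mcm3, 0.24 for Mcm4, 0.32 for Mcm5 and 0.29 for Mcm6, and none passed. Mcm2 was at 10.71, 10.55 and 10.12 in TGF-β1 1 to 3, against 10.33, 10.50 and 7.96 in controls 1 to 3. Its TGF-β1 3 value lay below controls 1 and 2, as did those of Mcm3 and Mcm4, while Mcm5 and Mcm6 were above both in every TGF-β1 array. Mcm6 was at 10.19, 10.14 and 10.00 in TGF-β1 1 to 3, against 9.99, 9.86 and 6.49 in controls 1 to 3. The unweighted difference of Mcm6 was 1.33 with control 3 and 0.19 without it. The 95% interval of the array-weighted difference ran from -0.18 to 0.55 for Mcm2 and from -0.08 to 0.66 for Mcm6.

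The origin recognition subunits Orc1 and Orc6 and the loader Cdt1 did not pass. Orc1 was at 6.91, 7.19 and 6.42 in TGF-β1 1 to 3, against 6.99, 6.99 and 6.91 in controls 1 to 3, and it alone had an array-weighted difference below 0 (-0.02 ± 0.15). Orc6 differed by 0.01 ± 0.18 and Cdt1 by 0.24 ± 0.16 (SE). The groups overlapped in all 3 genes.

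The 6 genes of helicase activation did not pass, with array-weighted differences from 0.08 to 0.55. Cdc45, the helicase cofactor, was at 7.55, 7.99 and 7.10 in TGF-β1 1 to 3, against 7.20, 7.09 and 6.48 in controls 1 to 3. TGF-β1 3 lay between controls 1 and 2, and the difference was 0.55 ± 0.17 (SE, limma adjusted p = 0.0815). Among the GINS subunits, Gins2 was at 9.06, 8.77 and 9.97 in TGF-β1 1 to 3, against 8.41, 8.54 and 7.28 in controls 1 to 3, which did not overlap. Its difference was 0.52 ± 0.18 (limma adjusted p = 0.122). Gins1 differed by 0.48, Gins4 by 0.29 and Gins3 by 0.08, and Mcm10, which helps to activate the helicase, by 0.22. Gins1 was at 8.92 in control 3, above its 3 TGF-β1 values of 7.87, 8.04 and 8.46, while controls 1 and 2 were at 7.25 and 7.56.

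Of the sliding clamp and its loader, Rfc3 alone passed. Rfc3 (Entrez gene 69263), a small subunit of replication factor C, was at 7.52, 7.72 and 7.70 in TGF-β1 1 to 3, against 6.88, 7.09 and 7.42 in controls 1 to 3. The groups did not overlap, and the difference was 0.57 ± 0.14 (SE, limma adjusted p = 0.0357), a fold of 1.48. Without control 3 it was 0.67 unweighted and 0.62 with array weights (limma adjusted p = 0.0718 in the weighted fit). Pcna, the clamp itself, was at 11.14, 11.02 and 11.16 in TGF-β1 1 to 3, against 10.77, 10.88 and 5.80 in controls 1 to 3. All treated arrays were above all controls, yet the array-weighted difference was 0.28 ± 0.20 (95% interval -0.16 to 0.72), and the unweighted difference was 1.96 with control 3 and 0.28 without it. Rfc2 differed by 0.28, Rfc4 by 0.22 and Rfc5 by 0.17, and none passed.

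Prim1 and Pole rose in the array-weighted fit among the 6 genes of primase and the polymerases. Prim1 (Entrez gene 19075), the catalytic subunit of primase, was at 8.99, 9.26 and 9.23 in TGF-β1 1 to 3, against 8.41, 8.56 and 6.21 in controls 1 to 3. The treated arrays were above every control, and the difference was 0.59 ± 0.16 (SE, limma adjusted p = 0.0499), just inside the threshold. Pole (Entrez gene 18973), the catalytic subunit of the polymerase of the leading strand, was at 8.70, 8.44 and 8.40 in TGF-β1 1 to 3, against 8.23, 7.85 and 5.76 in controls 1 to 3. It differed by 0.66 ± 0.17 (limma adjusted p = 0.0401), and without control 3 and TGF-β1 3 by 0.53 (adjusted p = 0.205). The nearest genes that missed the threshold were Fen1 (adjusted p = 0.0740 in limma's weighted fit) and Cdc45.

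The other subunits did not pass. Prim2, the partner of Prim1 in primase, differed by 0.10 ± 0.15, and TGF-β1 2 lay below controls 1 and 2. Pola1 and Pola2, of the polymerase that extends primers, differed by 0.25 and 0.17, and Pold1, the catalytic subunit of the polymerase of the lagging strand, by 0.32. In Pola1 and Pola2 the TGF-β1 3 values, 9.27 and 9.28, lay below those of controls 1 and 2, which were 9.51 and 9.47 for Pola1 and 9.78 and 9.79 for Pola2.

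The 3 genes that bind or join DNA strands had array-weighted differences from 0.42 to 0.53 and did not pass over all genes. Fen1, the flap endonuclease that trims Okazaki fragments, was at 7.72, 7.86 and 7.48 in TGF-β1 1 to 3, against 7.02, 7.31 and 4.99 in controls 1 to 3. Lig1, the ligase that seals them, was at 8.74, 8.44 and 8.75 in TGF-β1 1 to 3, against 8.12, 8.27 and 6.79 in controls 1 to 3. Neither gene overlapped between the groups. Rpa2, of the protein that coats single strands, was at 9.41, 9.38 and 9.04 in TGF-β1 1 to 3, against 8.69, 9.05 and 8.96 in controls 1 to 3, so that TGF-β1 3 lay just under control 2.

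Genes of nucleotide supply differed by 0.27 to 0.53 and did not pass. Rrm1, the large subunit of ribonucleotide reductase, was at 9.60, 9.58 and 9.11 in TGF-β1 1 to 3, against 9.08, 9.17 and 4.77 in controls 1 to 3. Rrm2, its small subunit, was at 8.14, 7.72 and 7.83 in TGF-β1 1 to 3, against 6.98, 7.63 and 7.77 in controls 1 to 3. In both subunits 1 control reached the range of the treated arrays. Tyms, thymidylate synthase, was at 9.96, 9.84 and 10.45 in TGF-β1 1 to 3, against 9.56, 9.57 and 7.31 in controls 1 to 3, with no overlap. Tk1, thymidine kinase, was at 7.99, 7.94 and 7.55 in TGF-β1 1 to 3, against 7.58, 7.70 and 9.60 in controls 1 to 3, so that control 3 was the highest array. Its unweighted difference was -0.47 and its array-weighted difference 0.27.

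None of the regulators of S phase entry passed. Ccne2 was at 9.27, 9.27 and 9.88 in TGF-β1 1 to 3, against 8.64, 8.85 and 4.83 in controls 1 to 3, with no overlap and an array-weighted difference of 0.54 ± 0.19 (SE, limma adjusted p = 0.127). Ccne1 was at 10.83, 10.50 and 11.08 in TGF-β1 1 to 3, against 10.41, 10.86 and 9.20 in controls 1 to 3, and differed by 0.00 ± 0.18 (95% interval -0.39 to 0.39). E2f1, the transcription factor, was at 6.94, 6.84 and 7.12 in TGF-β1 1 to 3, against 6.76, 6.86 and 6.78 in controls 1 to 3. It differed by 0.09 ± 0.14 (95% interval -0.21 to 0.38). The difference between Ccne1 and Ccne2, which both encode forms of cyclin E, was not tested.

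Uhrf1 and Dnmt1, which copy DNA methylation onto the new strand, were high in TGF-β1 1 and 2 and not in TGF-β1 3. Uhrf1 was at 10.28, 10.19 and 9.08 in TGF-β1 1 to 3, against 9.80, 9.69 and 7.10 in controls 1 to 3. Dnmt1 was at 9.77, 9.67 and 9.32 in TGF-β1 1 to 3, against 9.26, 9.36 and 7.22 in controls 1 to 3. Uhrf1 differed by 0.48 ± 0.19 and Dnmt1 by 0.38 ± 0.15 (SE), and neither passed. Without control 3 the unweighted difference of Uhrf1 was 0.10.

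**Figure D4:**
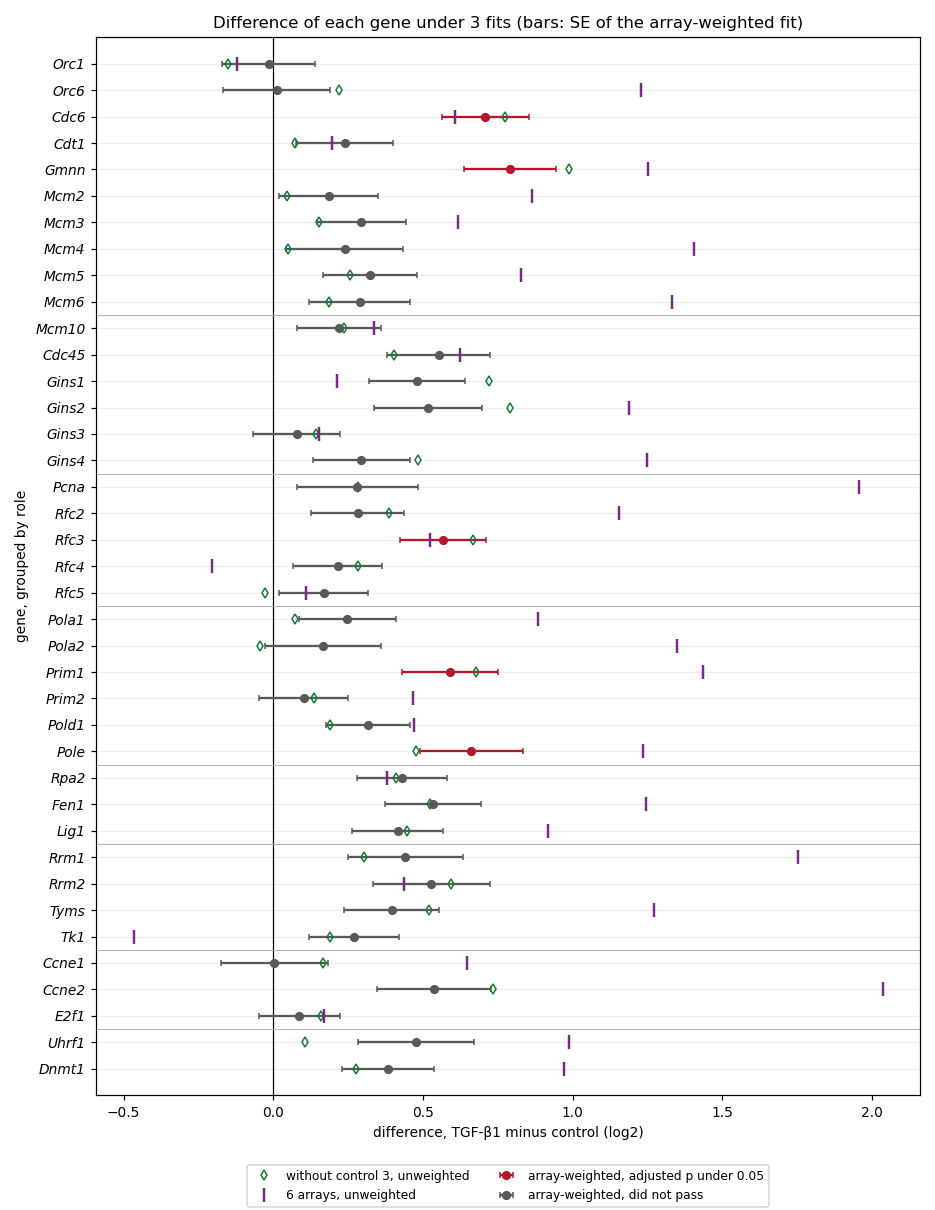
Difference of each gene, TGF-β1 minus control on the log2 scale, in the array-weighted fit (circles with SE bars, red where the adjusted p was under 0.05), in the unweighted fit without control 3 (diamonds) and in the unweighted fit of 6 arrays (ticks). The ticks lie far right of the other symbols for Pcna, Ccne2 and Rrm1, whose values in control 3 were 5.80, 4.83 and 4.77.

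TGF-β1 3 divided the 39 genes. It lay above both controls 1 and 2 in 24 genes (61.5%), between them in 5 (12.8%) and below both in 10 (25.6%), against 40.3% of all genes above, 18.2% between and 41.5% below. The 10 were Orc1, Cdt1, Mcm2, Mcm3, Mcm4, Rfc5, Pola1, Pola2, Tk1 and Uhrf1. Its deviation from the mean of controls 1 and 2 ranged from -0.67 for Uhrf1 to 1.51 for Gmnn, while the mean of TGF-β1 1 and 2 deviated by 0.03 for Ccne1 to 0.80 for Cdc6. Among the 10 genes of origin licensing it was below both controls in 5, and among the 6 of helicase activation in 0.

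The calls among other genes of replication stand beside 6.88% of all genes called in either direction. In the array-weighted fit, 3 of 34 measured genes of the fork and of origins rose (8.82%) and 0 fell, and the median difference was 0.19, against 0.29 for the 39. They were Pold3, an accessory subunit of a replicative polymerase, which rose by 0.60 ± 0.14, Rpa3, the smallest subunit of the single-strand binding protein, by 0.82 ± 0.20, and Atad5, which unloads the clamp, by 0.51 ± 0.13 (SE). Of 8 genes of chromatin assembly and histone supply 1 rose (12.5%), Asf1b, a histone chaperone, by 0.82 ± 0.17, and 0 fell. Of 14 further genes of nucleotide synthesis 0 rose and 1 fell (7.14%), Mthfd2, a mitochondrial folate enzyme, which fell by 1.08 on the log2 scale (limma adjusted p = 0.00627). Its values were 8.70, 8.92 and 9.77 in TGF-β1 1 to 3, against 9.99, 9.91 and 7.11 in controls 1 to 3. Control 3 was the lowest array, and the unweighted difference of Mthfd2 was 0.13. Of these 5 genes, Asf1b and Mthfd2 also passed with control 3 and TGF-β1 3 left out.

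Among G1 and S phase cyclins, kinases, E2F and pocket proteins, 2 genes of 22 were called (9.09%, against 6.88% of all genes). Of these 22 genes, 1 rose, 1 fell and 20 did not pass, with a median of 0.15. Ccna2, the cyclin of S phase and G2, was at 9.70, 9.48 and 9.35 in TGF-β1 1 to 3, against 8.91, 8.99 and 5.93 in controls 1 to 3, and rose by 0.66 ± 0.17. Ccnd2, a cyclin of G1, was at 8.91, 8.51 and 8.49 in TGF-β1 1 to 3, against 9.73, 9.47 and 6.83 in controls 1 to 3, and fell by 0.77 on the log2 scale (limma adjusted p = 0.0259). Ccnd2 and Ccna2 did not pass with control 3 and TGF-β1 3 left out (limma adjusted p = 0.0599 for Ccnd2 and 0.0829 for Ccna2). Myc, a factor that drives entry into the cycle and that TGF-β is known to repress in epithelial cells, differed by -0.54 ± 0.20 with array weights (limma adjusted p = 0.138). It was at 10.64, 10.31 and 10.27 in TGF-β1 1 to 3, against 11.10, 11.07 and 6.72 in controls 1 to 3. The unweighted difference of Myc was 0.78 with control 3 and -0.68 without that array, so that its sign turned on control 3.

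Of the 7 inhibitors of cyclin-dependent kinases, 1 rose and 1 fell (28.6% called, against 6.88% of all genes in either direction). Cdkn1b, which encodes p27, was at 8.47, 8.54 and 8.55 in TGF-β1 1 to 3, against 8.03, 7.82 and 8.19 in controls 1 to 3, and rose by 0.62 ± 0.14 (limma adjusted p = 0.0190), with no overlap. Without control 3 and TGF-β1 3 its adjusted p was 0.104. Cdkn1a, which encodes p21, was at 8.32, 9.46 and 10.95 in TGF-β1 1 to 3, against 11.03, 11.62 and 6.72 in controls 1 to 3. Control 3 was the lowest array and the other controls the highest, and Cdkn1a fell by 2.59 on the log2 scale with array weights, while its unweighted difference was -0.21 with control 3 and -1.75 without it. Cdkn1c, which encodes p57, differed by -0.25 ± 0.14 and did not pass. Cdkn2b, which encodes p15 and is a known target of TGF-β in epithelial cells, differed by -0.31 ± 0.16 (limma adjusted p = 0.303). Cdkn2b was at 7.13, 7.05 and 7.85 in TGF-β1 1 to 3, against 7.32, 7.49 and 8.25 in controls 1 to 3, where the groups overlap.

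Most genes of mitosis rose. The count was 20 of 28 measured (background 3.45%) with 0 lower, and the median difference was 0.69 against 0.29 for the replication genes; the difference between the lists was not tested. In the fit of TGF-β1 1 and 2 against controls 1 and 2, 8 of these genes passed (background 1.14% higher). Without control 3 in the weighted fit 12 did (background 1.26% higher). Cdc25c, a phosphatase that starts mitosis, rose by 1.16 ± 0.16, Ccnb2, a mitotic cyclin, by 0.95 ± 0.14, and Cdk1, the kinase that both act on, by 0.87 ± 0.21. Mki67, a common marker of dividing cells, rose by 1.06 ± 0.21 (0.69 unweighted without control 3), and Cenpa, the histone of centromeres, by 0.79 ± 0.14 (SE). Top2a, a topoisomerase of dividing cells, differed by 0.52 ± 0.16 and did not pass (limma adjusted p = 0.0720). Cdk1 was at 10.58, 10.28 and 10.85 in TGF-β1 1 to 3, against 9.58, 9.68 and 4.93 in controls 1 to 3.

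**Figure D5:**
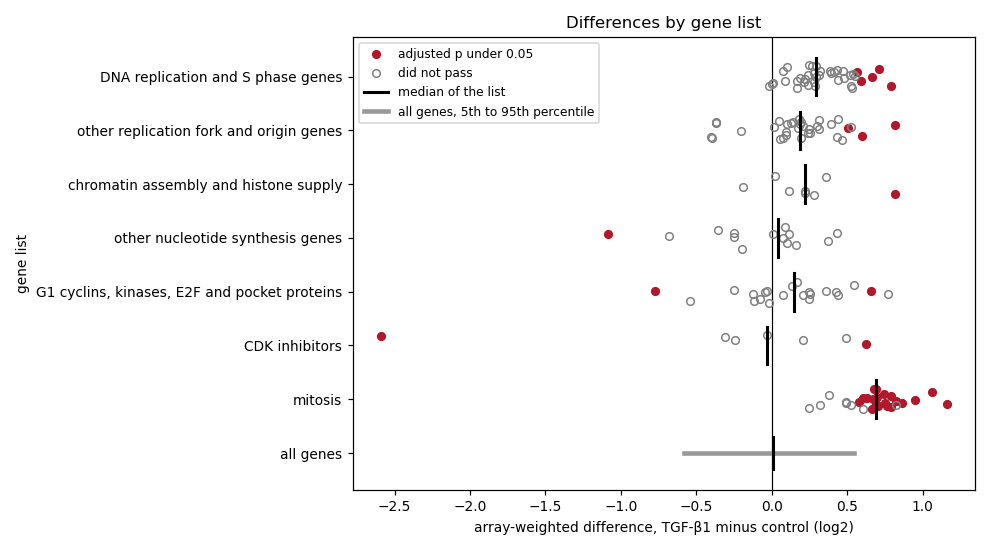
Array-weighted difference, TGF-β1 minus control on the log2 scale, of each measured gene in 7 lists (points, red where the adjusted p was under 0.05; black bars mark list medians) and the 5th to 95th percentile of all genes (grey bar). The medians were 0.29 for the replication and S phase genes and 0.69 for mitosis.

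Most markers of cell types did not pass, but those of epithelium and of mesenchyme lay to opposite sides. The median array-weighted difference was 0.72 for 8 epithelium markers and -0.44 for 7 mesenchyme markers, against 0.01 over all genes. In the unweighted fit without control 3 these medians were 0.60 and -0.40. Array-weighted differences were above 0 in 7 of the epithelium markers and in 0 of the mesenchyme markers. The mean log2 value of 8 epithelium markers was 10.63, 10.49 and 11.14 in TGF-β1 1 to 3, against 10.28, 9.90 and 7.50 in controls 1 to 3, and 2 of the 8 rose (background 3.45%), Epcam by 1.01 ± 0.20 and Cldn3 by 1.47 ± 0.19. The other epithelium markers did not pass, and among them Krt19 differed by -0.56 ± 0.36, the only one of the 8 below 0. Epcam did not pass without control 3 in the weighted fit (limma adjusted p = 0.0851). Nor did it without control 3 and TGF-β1 3 (limma adjusted p = 0.124). In each of these fits 1 of the 8 passed. The mean log2 value of 7 mesenchyme markers was 9.56, 9.38 and 9.79 in TGF-β1 1 to 3, against 9.74, 10.13 and 7.37 in controls 1 to 3, and 0 rose and 1, Twist1, fell by 0.96 on the log2 scale, while its unweighted difference was 0.03 with control 3 and -0.58 without it. Of 5 endothelium, 4 immune cell, 1 red cell and 4 skeletal muscle markers 0 rose, and 1 endothelium marker, Kdr, fell. Of 5 listed markers of neurons and glia only 2 were measured, and both rose, Tubb3 by 0.66 and Elavl4 by 0.65. Neither passed without control 3 in the weighted fit, or without control 3 and TGF-β1 3. The part of these shifts in the values of the replication genes was not tested.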

How the data were processed

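Expression was measured on Affymetrix arrays from biotin-labelled cRNA made from 6 µg of total RNA, per the labels' protocols. The authors deposited log2 values, 1 per probe set. Per the submitters' processing notes they used RMA, with no version given. The genome build is not given in the sources used here. The values were used as deposited. Of 22206 probe sets, 19572 had exactly 1 gene symbol, 0 had several and 2634 were unnamed here, which gave 19505 genes, each represented by its brightest probe set on average.

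The tests were those of limma 3.58.1 under R 4.3.3 (linear model and eBayes, two-sided, group as the only term), without and with arrayWeights, with Benjamini-Hochberg adjustment over all 19505 genes and a threshold of 0.05. Differences are TGF-β1 minus control. The words rose and fell are used of calls made with array weights. The code was tested on simulated data, which does not give its error rate on these arrays. Named genes are the members, 16 fixed symbols and up to 3 called genes per companion list; Cldn3, Kdr, Twist1, Cdh1, Krt19, Tubb3 and Elavl4 come from the marker lists and were named after their values were seen. The members, lists and fits were chosen with earlier results of these data known. Alternatives were other normalizations, filters, priors and weights, a replicate block and left-out arrays. Arrays carry no read depth, so their number limits the precision. Exact permutation of 3 against 3 arrays cannot give a p under 0.1 and was not used.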

Additional observations from a re-analysis of the deposited data

How the results depend on the processing

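The count of calls in the set changed with the processing. In the unweighted fit 0 of the 39 genes passed under every alternative, leaving out 1 array included, except 5 with array weights, 2 with array weights and without control 3, and 1 without control 3 and TGF-β1 3. In the array-weighted fit 5 passed (12.8%, against 6.88% of all genes). The count was 1 after quantile normalization (2.56%, against 2.49% of all genes), 1 after median centring (against 1.45%), 19 without the lowest 33.3% of genes (48.7%, against 33.4% of the genes kept), 3 with weights estimated gene by gene (7.69%, against 4.81%), 0 at an adjusted p under 0.01 (against 2.76%), 0 without weights, 0 without weights and control 3, 1 without control 3 and TGF-β1 3 (against 2.59%), and 0 to 2 with 1 array left out. REML weights equalled the default ones, and the mean of probe sets gave 5 and a trended robust prior 4. With the replicate number as a block 10 passed (25.6%, against 12.8% of all genes), and without the block 5 passed. Deviations of same-numbered arrays from their group means correlated at -0.07, -0.01 and -0.05. Control 3 dominates the deviations of the controls, so these values cannot tell whether the numbers pair the arrays. Weights by gene, and control 3 left out with weights in the one fit or without them in the other, were added after the data were seen. The causes were not tested.

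Some differences changed sign, among them those of Mthfd2 and Ccnd2, which had passed as lower. With 1 array left out, differences ranged from -0.32 to 0.061 for Orc1, -0.12 to 2.25 for Mcm4, -0.28 to 0.97 for Gins1, -0.51 to 0.43 for Rfc4, -0.14 to 0.37 for Rfc5, -0.035 to 1.45 for Pola1, -0.089 to 2.24 for Pola2, -0.70 to 0.35 for Tk1, -0.12 to 1.78 for Uhrf1, -0.73 to 0.15 for Cdkn2b, -0.75 to 1.61 for Myc, -1.18 to 0.60 for Ccnd2, -0.37 to 0.072 for Col1a1, -0.36 to 2.04 for Actb and -1.14 to 0.33 for Mthfd2. Without weights Rfc4 was at -0.21, Tk1 at -0.47, Myc at 0.78, Actb at 1.16 and Mthfd2 at 0.13, and without weights and control 3 Rfc5 was at -0.026 and Pola2 at -0.043. Orc1 was at 0.11 with the replicate block, 0.059 without control 3 and TGF-β1 3 and 0.012 with weights by gene. Orc6 was at -0.094 and Ccne1 at -0.072 without the lowest 33.3% of genes, and Ccne1 at -0.11 with the replicate block and at -0.0012 with the mean of probe sets.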
